A study of Mus musculus with 12 samples.

Results

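The dual-specificity MAP kinase phosphatases analyzed here were Dusp1, Dusp2, Dusp4, Dusp5, Dusp6, Dusp7, Dusp8, Dusp10, Dusp14 and Dusp16, which made 10 of the 18193 genes measured. They belong to this family and were chosen with earlier results of these data known. Other dual-specificity phosphatase genes, Dusp9 among them, were counted separately. Each has at least 1 probe set that the array annotation assigns to it alone, 16 in all, and a gene with several was represented by the one with the highest mean signal. The cells were BMDMs, macrophages grown from bone marrow with M-CSF, from WT mice (C57BL/6) and from Nos2-/- mice (B6.129P2-Nos2tm1Lau/J) aged 6 to 10 weeks. Nos2-/- mice lack a functional inducible NO synthase in every cell, so the genotype was already present while the macrophages differentiated for about 7 days. Cells of each genotype were left untreated or stimulated for 8 h with LPS (100 ng/mL) together with IFNγ (50 ng/mL). The methods describe the untreated cells as given vehicle (PBS) for the same time, and the sample labels describe them as taken before stimulation. Each of the 4 groups had 3 Affymetrix Mouse Genome arrays, 12 in all. The labels call these biological replicates without saying whether each came from its own mouse, so the p-values measure the spread between these samples.

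MAP kinases are switched on when a threonine and a tyrosine of their activation loop are phosphorylated, and these phosphatases switch them off by removing both phosphates. The family divides by place and preference. Dusp1, Dusp2, Dusp4 and Dusp5 encode inducible nuclear enzymes, Dusp6 and Dusp7 encode cytoplasmic enzymes that prefer ERK, and Dusp8, Dusp10 and Dusp16 encode enzymes that prefer JNK and p38. Dusp14 encodes a small phosphatase without the MAP kinase-binding domain of the others. In macrophages LPS activates ERK, JNK and p38 through Toll-like receptor 4, and Dusp1 is best known for limiting p38 signaling and cytokine output after LPS.

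The promoters of the members hold different short motifs near the gene start. RefSeq sequences (GRCm38.p6) of the 250 bases before the gene start were found for 9 of the 10 members, all but Dusp4. Both strands were searched for the cAMP response element (CRE, TGACGTCA), its half-site (TGACG, which lies inside every CRE), AP-1 (TGANTCA), GAS (TTCNNNGAA), the ISRE, the NF-kB kB site and the CArG box of serum response factor. Below are the promoters of Dusp1 (chr17:26508473-26508722, minus strand) and Dusp8 (chr7:142095285-142095534, minus strand), which both hold a CRE, of Dusp5 (chr19:53528895-53529144, plus strand), which holds CArG boxes, and of Dusp2 (chr2:127335909-127336158, plus strand), the member with the largest rise. They run 5′ to 3′, and capitals mark every match.
Dusp1: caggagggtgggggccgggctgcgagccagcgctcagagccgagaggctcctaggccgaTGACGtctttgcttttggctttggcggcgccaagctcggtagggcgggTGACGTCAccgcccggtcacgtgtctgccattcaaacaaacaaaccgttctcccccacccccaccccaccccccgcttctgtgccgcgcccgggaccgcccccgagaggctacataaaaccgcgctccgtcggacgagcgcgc
Dusp8: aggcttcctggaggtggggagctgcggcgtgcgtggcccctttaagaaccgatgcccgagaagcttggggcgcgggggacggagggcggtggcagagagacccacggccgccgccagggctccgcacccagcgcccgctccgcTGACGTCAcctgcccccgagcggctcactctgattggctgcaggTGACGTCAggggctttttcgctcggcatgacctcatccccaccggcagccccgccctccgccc
Dusp5: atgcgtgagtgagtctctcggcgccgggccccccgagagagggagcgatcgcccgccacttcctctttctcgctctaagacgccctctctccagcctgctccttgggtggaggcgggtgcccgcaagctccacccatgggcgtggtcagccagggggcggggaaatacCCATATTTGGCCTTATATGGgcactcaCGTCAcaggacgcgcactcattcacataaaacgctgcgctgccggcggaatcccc
Dusp2: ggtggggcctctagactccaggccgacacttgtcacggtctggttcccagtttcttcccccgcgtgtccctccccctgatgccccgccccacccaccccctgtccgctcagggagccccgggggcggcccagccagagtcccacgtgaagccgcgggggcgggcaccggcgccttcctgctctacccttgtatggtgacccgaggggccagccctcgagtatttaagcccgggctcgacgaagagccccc

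The CRE was found in Dusp1, at bases 143 to 136 before the start, and in Dusp8, at bases 107 to 100 and 63 to 56. Of all 32851 promoters of this length 1.55% hold one. Half-sites were found in Dusp1, Dusp5, Dusp8 and Dusp16 (17.8% of all promoters). Dusp5 alone of the 9 had CArG boxes, which lie next to each other at bases 82 to 73 and 72 to 63 (1.47% of all promoters hold one). A GAS match was found in Dusp14 (7.02%). AP-1, ISRE and kB matches were found in 0 of the 9 windows and in 6.75%, 2.98% and 3.9% of all promoters. A match is only a run of letters, and the window leaves out any site further away.

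The arrays were alike in overall signal. The median log2 signal ran from 5.14 to 5.21, and arrays of a group correlated at 0.996 or above. Of 9 macrophage markers, 8 are on the array. None had a mean below that of the median gene, and the log2 of their summed signal was 16.1 to 16.2 in all groups. Nos2 itself had a log2 signal of 5.50 ± 0.14 in untreated WT, 9.73 ± 0.09 in stimulated WT, 5.31 ± 0.14 in untreated Nos2-/- and 7.69 ± 0.22 in stimulated Nos2-/- (SD, n = 3). Since it is not known here whether this probe set targets the deleted part, it is no check of genotype. The log2 of the summed signal of 7 neutrophil markers was 9.66 to 10.3 in untreated WT, 9.96 to 10.6 in untreated Nos2-/-, 12.5 in all stimulated WT and 12.8 to 12.9 in stimulated Nos2-/- arrays. S100a8 rose with it, from 8.88 to 12.3 in WT and from 9.10 to 12.7 in Nos2-/-, whereas the neutrophil enzyme Mpo had group means of 5.07 to 5.53. Mpo, Elane and Cxcr2 had means below that of the median gene. The log2 of the sum for 5 dendritic cell markers, of which Flt3, Zbtb46, Siglech and Xcr1 lay below the median gene and Ccr7 above it, was 7.43 to 7.52 in untreated, 8.43 to 8.77 in stimulated WT and 8.77 to 9.09 in stimulated Nos2-/- arrays. Whether these markers had a part in the results below was not tested. In such bulk samples, fewer cells of a type and less RNA per cell cannot be told apart.

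LPS and IFNγ changed most of the phosphatase transcripts in WT BMDMs, some up and some down. Dusp2, Dusp16, Dusp1, Dusp5 and Dusp14 rose, Dusp4, Dusp6 and Dusp7 fell, and Dusp8 and Dusp10 did not pass the test. That made 8 of 10 members. Of all genes limma called 58.0%, 29.6% as higher and 28.4% as lower, so the share is read against a response that reached over most of the array. The groups of these 8 members did not overlap, nor did those of 65.1% of all genes. The median absolute log2 fold change of the members was 1.28, against 0.27 over all genes.

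Dusp2, also known as PAC-1, encodes a nuclear phosphatase of blood cells that acts on ERK and p38. Its log2 signal was 6.87, 6.99 and 6.99 on the untreated and 10.70, 10.58 and 10.85 on the stimulated WT arrays. Every stimulated array lay above every untreated one. The log2 fold change was 3.76 (standard error 0.10, 95% CI 3.53 to 3.98, adjusted p = 1.58e-12 from limma), a 13.5-fold rise that 97 genes exceeded. Dusp1, also called MKP-1, had signals of 10.40, 10.56 and 10.72 untreated and 12.95, 12.63 and 12.86 stimulated. Again the groups did not overlap, and the rise was 4.78-fold (2.26 on the log2 scale, standard error 0.12, adjusted p = 8.04e-10).

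Dusp5, whose product binds and inactivates ERK in the nucleus, went from 7.24, 7.22 and 7.42 to 8.66, 8.66 and 8.86. This was a 2.71-fold rise with no overlap (log2 fold change 1.44, standard error 0.12, adjusted p = 9.1e-08 from limma). Dusp4, also called MKP-2, moved the other way. It had signals of 7.61, 7.86 and 7.65 untreated and of 5.92, 6.21 and 5.94 stimulated. All stimulated arrays were below the untreated ones, with a log2 fold change of −1.68 (standard error 0.12, adjusted p = 3.39e-08), a 3.21-fold fall.

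Dusp6 and Dusp7, the cytoplasmic ERK phosphatases among the members, were both lower after stimulation in WT. For Dusp6, or MKP-3, whose transcription is a common readout of ERK activity, the untreated signals were 11.42, 11.37 and 11.44 and the stimulated ones 10.17, 10.52 and 10.16. It fell 2.18-fold without overlap (log2 fold change −1.12, standard error 0.10, adjusted p = 2.74e-07 from limma). Dusp7 changed less, from 8.47, 8.47 and 8.49 to 8.06, 7.86 and 8.02. The log2 fold change was −0.49 (standard error 0.08, adjusted p = 6.19e-05), and the groups did not overlap.

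The JNK and p38 phosphatases were split. Dusp16, also called MKP-7, had signals of 6.97, 7.18 and 7.09 untreated and 10.80, 10.69 and 10.77 stimulated. This 12.7-fold rise (log2 fold change 3.67, standard error 0.08, adjusted p = 1.66e-13 from limma) was exceeded by 106 genes. Dusp8 and Dusp10, or MKP-5, were not called, with untreated arrays between 6.29 and 6.50 for Dusp8 and between 5.18 and 5.57 for Dusp10. Stimulated arrays lay within those ranges for Dusp10 (5.30 to 5.42) and reached 6.53 at the top for Dusp8. The differences were 0.02 (95% CI −0.18 to 0.23) and −0.04 (95% CI −0.24 to 0.15) on the log2 scale.

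Dusp14, or MKP-6, had the dimmest signals of the members, although 27.8% of genes had a lower mean. They were 4.43, 4.53 and 4.15 untreated and 5.20, 4.83 and 4.75 stimulated. The lowest stimulated array was above the highest untreated one, and the log2 fold change was 0.56 (standard error 0.13, adjusted p = 0.0028 from limma). The 2 promoters with a complete CRE thus belong to Dusp1, which rose 4.78-fold, and to Dusp8. On the probe set used, Dusp8 was at 1.02-fold and not called. Its probe sets 1447346_s_at and 1418714_at were called higher in WT, by 0.28 and 0.29 on the log2 scale.

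**Figure D1:**
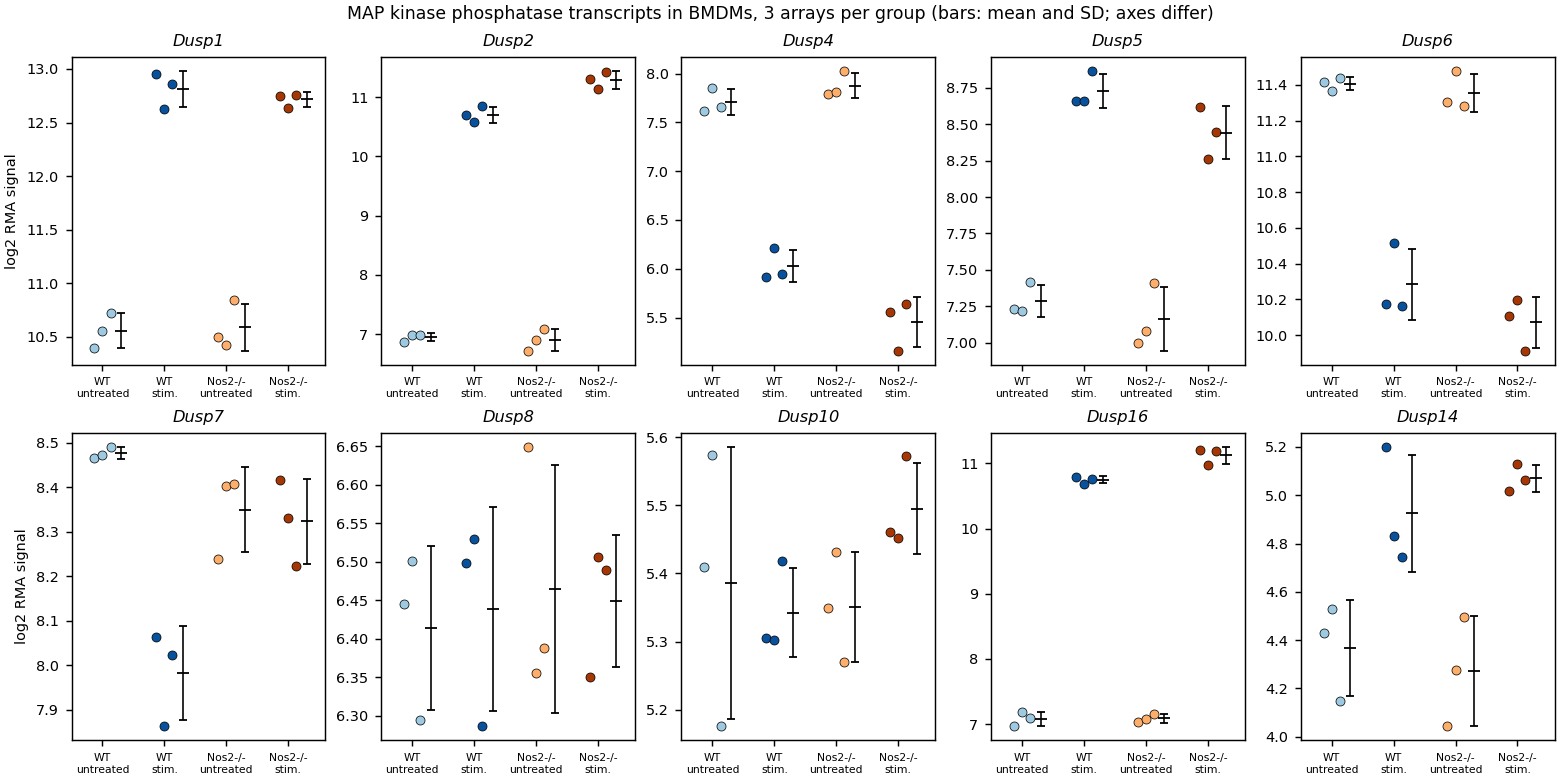
Log2 RMA signal (y axis, different in each panel) of the 10 phosphatase genes on each of the 12 arrays, by group (x axis). Points are arrays, and the bars beside them give the mean and SD of the 3 arrays. Dusp2 and Dusp16 show the widest gap between untreated and stimulated arrays, whereas the arrays of Dusp8 all lie between 6.29 and 6.65.

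In Nos2-/- BMDMs limma called 7 of 10 members, 5 higher and 2 lower. They were the members called in WT without Dusp7, each in the direction it had there. Of all genes limma called 54.5%, 26.3% as higher and 28.2% as lower. The groups did not overlap in 8 members, Dusp10 being added to the 7, and in 60.5% of all genes. Dusp2 went from 6.72, 6.89 and 7.09 to 11.31, 11.13 and 11.43, which is a log2 fold change of 4.39 (standard error 0.10) or 21.0-fold. Dusp16 went from 7.03, 7.08 and 7.16 to 11.21, 10.97 and 11.20, at 4.04 (standard error 0.08) or 16.4-fold. No untreated array came near a stimulated one for either gene.

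Dusp1 rose in Nos2-/- by 2.13 on the log2 scale (standard error 0.12), from 10.50, 10.43 and 10.84 to 12.75, 12.64 and 12.76. Dusp5 rose by 1.28 (standard error 0.12), from 7.00, 7.08 and 7.41 to 8.62, 8.26 and 8.44. Dusp14 rose by 0.80 (standard error 0.13), from arrays at 4.04 to 4.50 to arrays at 5.02 to 5.13. In all 3 the stimulated arrays stood clear of the untreated ones.

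Among the members that fell, Dusp4 dropped from 7.79, 7.81 and 8.03 to 5.55, 5.16 and 5.64, a log2 fold change of −2.43 (standard error 0.12) and a 5.37-fold fall. For Dusp6 the signals were 11.30, 11.48 and 11.28 untreated and 10.11, 10.19 and 9.91 stimulated, and it fell 2.43-fold (−1.28, standard error 0.10). The groups were separate for both genes. Dusp7 had 8.24, 8.40 and 8.41 untreated and 8.42, 8.33 and 8.22 stimulated, so that the groups overlapped. Its change was −0.03 on the log2 scale (adjusted p = 0.788 from limma, 95% CI −0.19 to 0.14). Dusp8 was at −0.02 (95% CI −0.22 to 0.19) and Dusp10 at 0.14 (95% CI −0.05 to 0.34), neither called.

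**Figure D2:**
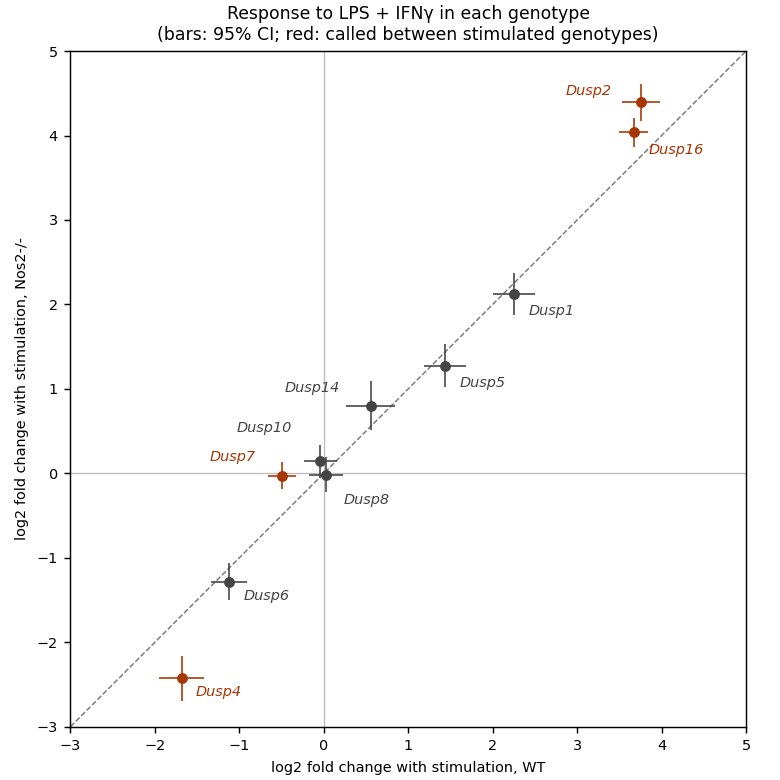
Log2 fold change after stimulation in WT (x axis) and in Nos2-/- (y axis) BMDMs for the 10 genes, with 95% confidence intervals from limma and a dashed line at equal values. Genes in red were called between the stimulated genotypes. Dusp2 (3.76 and 4.39) and Dusp16 (3.67 and 4.04) lie above the line, as does Dusp7 (−0.49 and −0.03), and Dusp4 (−1.68 and −2.43) lies below it.

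The genotypes were then compared directly. Between the untreated genotypes 0 of 10 members were called by limma (0.011% of all genes), and 0 had an unadjusted p under 0.05. The log2 differences, Nos2-/- minus WT, ran from −0.13 in Dusp7 to 0.17 in Dusp4. Dusp4 had the widest interval on the upper side, up to 0.44, and Dusp7 was the only member whose untreated groups did not overlap, as 12.6% of all genes did not.

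After stimulation 4 of 10 members differed between the genotypes, against 2.94% of all genes. Dusp2, Dusp16 and Dusp7 were higher in Nos2-/- (1.03% of all genes), and Dusp4 was lower (1.91%). At an unadjusted p under 0.05 there were 5 members, Dusp5 being added, and 15.1% of all genes. The stimulated groups did not overlap in 6 members, and in 17.1% of all genes. The median absolute difference of the members was 0.25 on the log2 scale, against 0.08 over all genes.

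Dusp2 differed most. Its 3 Nos2-/- arrays (11.31, 11.13 and 11.43) all exceeded its 3 WT arrays (10.70, 10.58 and 10.85), and the log2 difference was 0.58 (standard error 0.10, 95% CI 0.36 to 0.81, adjusted p = 0.0058 from limma). Of all genes, 39 had a larger difference in this direction. The call was made under 21 of 22 alternative settings. For this and the next 3 genes, the alternatives include leaving out each untreated array in turn. That cannot move a difference between stimulated groups, only its error and adjusted p, so these tallies overstate how far the calls were probed.

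Dusp16 arrays at 10.97 to 11.21 in Nos2-/- stood above those at 10.69 to 10.80 in WT. The difference of 0.37 (standard error 0.08, 95% CI 0.20 to 0.55, adjusted p = 0.0208) was called under 13 of 22 alternatives. With Dusp7 the arrays at 8.22 to 8.42 in Nos2-/- stood above those at 7.86 to 8.06 in WT, at 0.34 (standard error 0.08, 95% CI 0.18 to 0.50, adjusted p = 0.0256), called under 14 of 21. Dusp4 had the opposite order, with Nos2-/- arrays at 5.16 to 5.64 below WT arrays at 5.92 to 6.21. Its difference was −0.57 (standard error 0.12, 95% CI −0.84 to −0.31, adjusted p = 0.0226), called under 17 of 22. Both stimulated group means of Dusp4, 6.02 in WT and 5.45 in Nos2-/-, lay below the median of all gene means, 6.12, so this difference was read at dim signal.

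These calls, apart from that of Dusp2, were close to the threshold and rested in part on single arrays. Without WT stimulated replicate 2, which had the lowest Dusp2, Dusp16 and Dusp7 and the highest Dusp4 signal of its group, only Dusp2 was called, and the adjusted p of limma was 0.0961 for Dusp4, 0.106 for Dusp7 and 0.0843 for Dusp16. Without WT stimulated replicate 3, or without Nos2-/- stimulated replicate 1, Dusp2 and Dusp4 were called. Without Nos2-/- stimulated replicate 2 it was Dusp2 and Dusp16, and without replicate 3 of that group Dusp16 was lost (adjusted p = 0.0854).

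The other members did not pass. Dusp5 arrays lay at 8.26 to 8.62 in Nos2-/- and at 8.66 to 8.86 in WT, a log2 difference of −0.29 with no overlap but an adjusted p = 0.255 from limma. Dusp6 was at −0.21 (95% CI −0.43 to 0.0042, adjusted p = 0.345), Dusp1 at −0.10 (95% CI −0.35 to 0.15) and Dusp14 at 0.15 (95% CI −0.14 to 0.44). Dusp14 is the only member on chromosome 11 with Nos2, 71 protein-coding gene positions away (RefSeq gene order, GRCm38.p6). Dusp10 was at 0.15 (95% CI −0.04 to 0.35) without overlap, and Dusp8 at 0.01 (95% CI −0.19 to 0.21).

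Whether stimulation itself moved a gene differently in the genotypes was asked by the difference of the responses, Nos2-/- minus WT. Limma called 0 of 10 members (0.978% of all genes), while 4 had an unadjusted p under 0.05 (10.0% of all genes). These 4 were the genes called between the stimulated genotypes, a comparison that uses the same stimulated arrays. Dusp4 had the largest difference, −0.74 (standard error 0.18, 95% CI −1.12 to −0.36, adjusted p = 0.0731 from limma). It was 0.63 for Dusp2 (standard error 0.15, adjusted p = 0.0650), 0.47 for Dusp7 (standard error 0.11, adjusted p = 0.0621) and 0.36 for Dusp16 (standard error 0.11, adjusted p = 0.211). The differences of Dusp1 (−0.13, 95% CI −0.48 to 0.22) and Dusp5 (−0.16, 95% CI −0.51 to 0.19) were not called either. With an intensity trend in limma, or without genes of below-median signal, Dusp2, Dusp4 and Dusp7 were called.

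**Figure D3:**
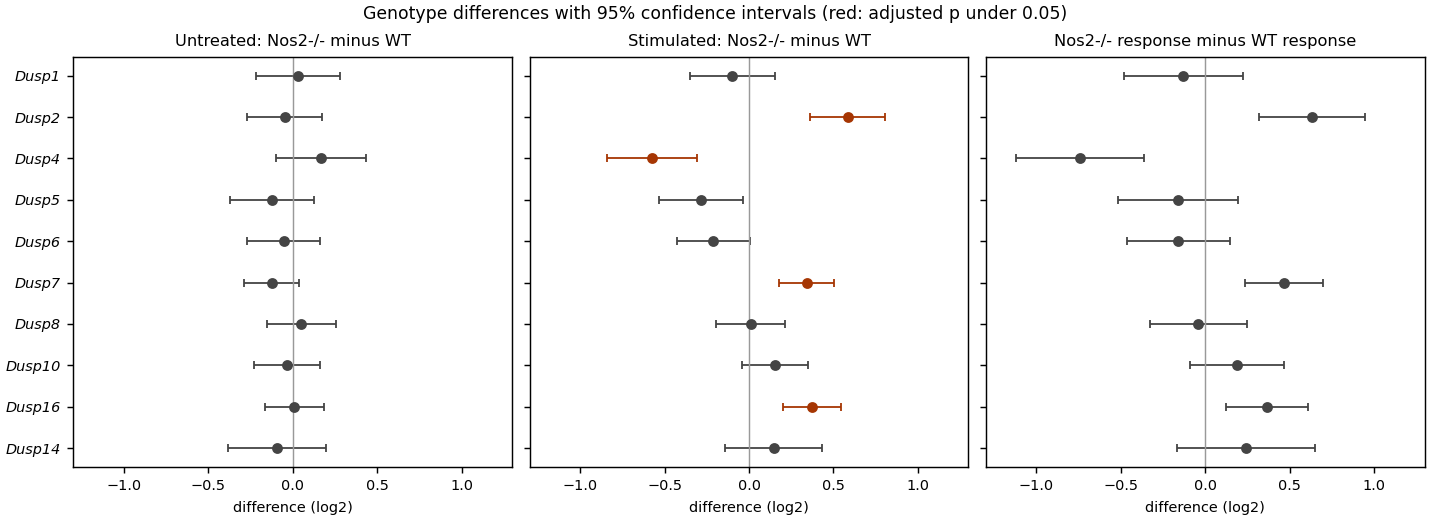
Differences on the log2 scale (x axis) of the 10 genes between untreated genotypes, between stimulated genotypes and between the responses, Nos2-/- minus WT in each, with 95% confidence intervals from limma. Genes in red passed an adjusted p of 0.05, which only Dusp2, Dusp4, Dusp7 and Dusp16 did, between the stimulated genotypes.

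Dusp7 has 3 probe sets, which target the same gene and are therefore not independent. All 3 were higher in Nos2-/- after stimulation when the 34945 single-gene probe sets were tested together, where 2.59% were called. The differences were 0.34 for 1452097_a_at (adjusted p = 0.0316 from limma), 0.47 for 1427416_x_at (adjusted p = 0.0038) and 0.54 for 1460393_a_at (adjusted p = 0.0017). The suffix _x_at marks probes that can also match other transcripts, and _a_at probes shared by transcripts of the same gene.

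The responses themselves differed between the genotypes in 2 of the 3 Dusp7 probe sets, where 0.793% of all probe sets were called. All 3 fell in WT (54.0% of all probe sets called) and 1 rose in Nos2-/- (51.4%). On 1460393_a_at the arrays read 7.34, 7.34 and 7.45 in untreated WT, 7.18, 6.97 and 7.24 in stimulated WT, 7.20, 7.19 and 7.33 in untreated Nos2-/- and 7.73, 7.61 and 7.67 in stimulated Nos2-/- BMDMs. Stimulation lowered it in WT (log2 fold change −0.25, adjusted p = 0.0181 from limma) and raised it in Nos2-/- (0.43, adjusted p = 0.0003), a difference of 0.68 (standard error 0.11, adjusted p = 0.0097). On 1427416_x_at the difference was 0.58 (standard error 0.11, adjusted p = 0.0229), from a fall of −0.65 in WT and a change of −0.07 in Nos2-/- that was not called. The third, 1452097_a_at, had 0.47 (adjusted p = 0.0785) and represented the gene above.

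**Figure D4:**
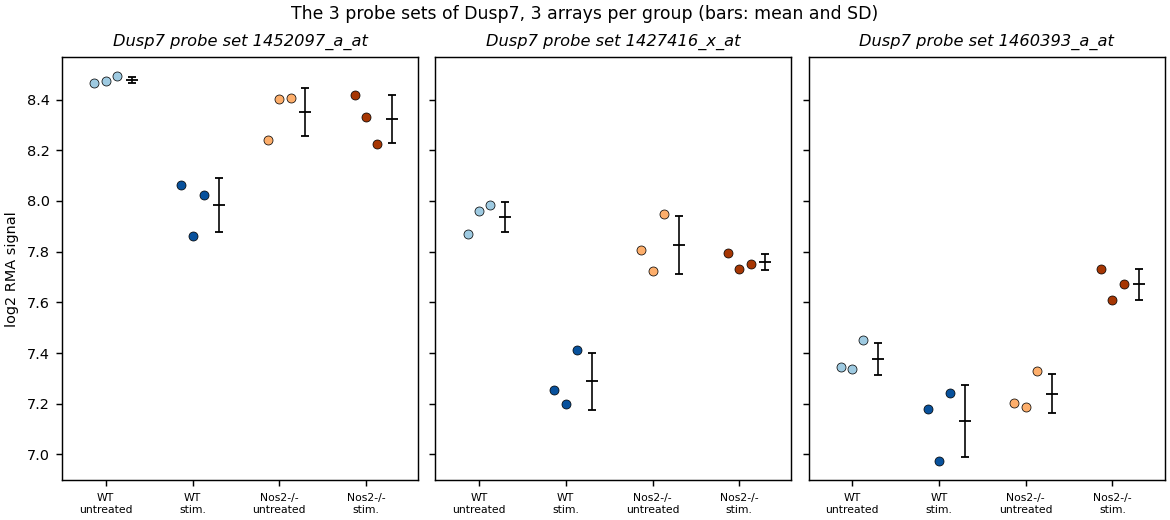
Log2 RMA signal (y axis) of the 3 probe sets of Dusp7 on each array, by group (x axis), with the mean and SD of the 3 arrays beside the points. In each probe set the stimulated WT arrays lie lowest as a group mean, at 7.98, 7.29 and 7.13, and only on 1460393_a_at do the stimulated Nos2-/- arrays (7.61 to 7.73) lie above their untreated ones (7.19 to 7.33).

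Other members with several probe sets also varied among them. Dusp8 was not called on 1428864_at, whereas 1447346_s_at and 1418714_at rose slightly in WT, by 0.28 and 0.29 on the log2 scale (adjusted p = 0.0100 and 0.0184 from limma over all probe sets), and were at −0.05 and −0.08 in Nos2-/-. Their differences of the responses, −0.34 and −0.37, were not called (adjusted p = 0.318 and 0.351). The dim Dusp16 probe set 1440615_at rose by 0.76 in WT and by 1.20 in Nos2-/-, both called and both smaller than on the brighter 1418401_a_at. Between the stimulated genotypes it was at 0.47 and not called (adjusted p = 0.252), so the Dusp16 call there rests on 1418401_a_at alone. Both Dusp10 probe sets were uncalled in every comparison.

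Other genes of the MAP kinase pathway were counted in the same way, to be read against the 58.0% of all genes called in WT and the 54.5% called in Nos2-/-. Of 30 genes listed for the kinase cascade, 24 were analysed, and the others are not analysed here. In WT 11 rose (29.6% of all genes), 5 fell (28.4%) and 8 were not called, with a median log2 fold change of 0.18, against 0.07 over all genes. In Nos2-/- the counts were 11 (26.3% of all genes), 5 (28.2%) and 8, with a median of 0.22, against 0.05. Map3k8, the kinase that links Toll-like receptors to ERK, rose by 2.05 in WT and 2.58 in Nos2-/-. Map2k4, which activates JNK and p38, rose by 1.14 and 1.40. Mapkapk2, a kinase activated by p38, rose by 0.90 and 1.12. Rps6ka5, a nuclear kinase downstream of ERK and p38, fell, at −2.52 and −2.60, as did Map3k5 at −1.10 and −0.74. Between the stimulated genotypes Map3k8 was the only 1 of the 24 called (0.45, standard error 0.08), against 2.94% of all genes. Its responses also differed (0.53, adjusted p = 0.0453 from limma), again alone of the 24, against 0.978% of all genes. At an unadjusted p under 0.05 there were 8 of the 24 between the stimulated genotypes (15.1% of all genes). For the difference of the responses there were 6 (10.0%).

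Of 16 other dual-specificity phosphatase genes, WT cells raised 4 and lowered 6, with 6 not called, and Nos2-/- cells raised 3 and lowered 6, with 7 not called. Those shares were near the 58.0% and 54.5% of all genes called (median log2 fold change 0.05 in each, against 0.07 and 0.05 over all genes). Dusp22, known for its action on Lck and JNK signaling, fell at −2.80 in WT and −2.54 in Nos2-/-, and Dusp28 rose by 1.78 and 1.92. Dusp19 fell at −1.02 and −1.21 and Dusp3 at −0.97 and −1.18. Limma called 0 of the 16 between the stimulated genotypes (2.94% of all genes) and 0 for the difference of the responses (0.978%). At an unadjusted p under 0.05 there were 2 in each, against 15.1% and 10.0% of all genes. Of 7 Sprouty and Spred genes, which encode inhibitors of Ras and ERK signaling, 2 rose, 2 fell and 3 were not called in each genotype, also near the share of all genes (median 0.15 and 0.16). Spred3 rose by 1.73 in WT and 2.03 in Nos2-/- and Spry3 by 0.38 and 0.24, and Spry2 fell at −1.11 and −1.10. Spred1 fell in WT (−0.45) and was at −0.14 in Nos2-/-, not called, and Spred2 fell in Nos2-/- (−0.39) and was at −0.16 in WT, not called. Here too 0 were called between the stimulated genotypes by limma (2.94% of all genes), and 3 had an unadjusted p under 0.05 (15.1%). For the difference of the responses 0 were called (0.978%), and 1 was under that unadjusted threshold (10.0%).

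Lists of immediate early and ERK target genes and of mRNA stability factors linked to p38 were counted last. Of 16 immediate early and ERK target genes, WT cells raised 7 and lowered 5, and Nos2-/- cells raised 8 and lowered 6, against 29.6% of all genes raised and 28.4% lowered in WT and 26.3% and 28.2% in Nos2-/-. Their median log2 fold change was 0.13 in WT and 0.19 in Nos2-/-, against 0.07 and 0.05 over all genes. Ier3 rose by 3.50 in WT and 3.52 in Nos2-/-, whereas the transcription factors Egr1 (−5.89 and −4.67), Egr2 (−4.53 and −4.94) and Myc (−3.51 and −3.39) fell. Fosl1, a subunit of AP-1, was the only 1 of the 16 called between the stimulated genotypes (−1.22, standard error 0.10) and in its response (−1.16, adjusted p = 0.0011 from limma). Of all genes 2.94% and 0.978% were called in these 2 comparisons. At an unadjusted p under 0.05 there were 5 and 4 of the 16, against 15.1% and 10.0% of all genes. Of 8 factors of mRNA stability linked to p38, each genotype raised 1, and 5 were lowered in WT and 4 in Nos2-/-. Of all genes, 29.6% were raised and 28.4% lowered in WT, and 26.3% and 28.2% in Nos2-/-. Their median was −0.45 in WT and −0.36 in Nos2-/-, against 0.07 and 0.05 over all genes. Zfp36, which encodes the mRNA-destabilizing protein tristetraprolin, rose by 0.70 and 0.81. Its relative Zfp36l1 fell at −1.47 and −1.26, and the RNA-binding protein gene Tia1 at −0.66 in each genotype. Another relative, Zfp36l2, fell at −1.82 and −2.45. It was the only 1 of the 8 called between the stimulated genotypes (−0.62) and in its response (−0.63, adjusted p = 0.0081 from limma). It was also the only 1 there at an unadjusted p under 0.05. Between the untreated genotypes limma called 0 genes of any of these 5 lists, and each list had 0 to 2 at an unadjusted p under 0.05.

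As a description of shared pattern, each gene's log2 values over the 12 arrays were correlated with those of Dusp2, the member with the largest WT response, and of Dusp4, the member with the largest difference of the responses. The 12 arrays fall into untreated and stimulated ones, so that any strongly responding gene scores high, and 1763 genes had a Pearson r over 0.95 with Dusp2 and 2039 with Dusp4. Nearest to Dusp2 were the chemokine gene Ccl4 (r = 0.999), Trip12, Lrrc8c, the chemokine gene Ccl7 and Dusp16 (r = 0.999). Like Dusp2, all 5 had their highest group mean in stimulated Nos2-/- BMDMs. Nearest to Dusp4 were Cd300a (r = 0.991), Ubl3, the chemokine receptor gene Cxcr4, the lysosomal lipase gene Lipa and Wdr7 (r = 0.990), which had their lowest group mean there. Both sets of genes were picked by correlation over these same arrays, so a shared order of group means is no separate result.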

How the data were processed

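Each of the 12 BMDM samples was measured on 1 Affymetrix Mouse Genome array. The authors processed the images with RMA in Partek (version not given in the sources used here), and deposited log2 signals, which were not changed further. Of 45101 probe sets, 64 controls, 932 naming several genes and 9160 naming none were left out. The other 34945 gave 18193 genes, each taken at its probe set of highest mean signal, with no filter on dim ones. Precision is limited by the number of arrays.

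Two-sided tests came from lmFit and eBayes of limma 3.58.1 (R 4.3.3), from 1 model of 4 group means. Calls needed an adjusted p under 0.05 (Benjamini-Hochberg, over all genes) and no minimum fold. In the methods an analysis of variance is named, with 1.5-fold and a false discovery rate under 0.5, which was an alternative, as were the arrays, moderation, trend, scaling, filter, probe sets, block and arrays left out. Every member was named, with up to 4 called genes of largest change per pathway list. Tables and figures were made with Python 3.11.15 and matplotlib 3.10.9. The fit was tested on simulated data. Members and lists were chosen with earlier results of these data known.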

Additional observations from a re-analysis of the deposited data

Results flagged for a closer look

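Between the genotypes, the response to stimulation differed by a test of the difference itself in 2 probe sets of Dusp7. The difference, Nos2-/- minus WT on the log2 scale, was 0.583 on 1427416_x_at and 0.677 on 1460393_a_at, with adjusted p = 0.0229 and 0.0097 from limma over all single-gene probe sets. The third probe set, 1452097_a_at, was at 0.467 and did not pass (adjusted p = 0.0785). With the mean of all Dusp7 probe sets in the test over genes, the difference was 0.58 (adjusted p = 0.0075 from limma).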

How the results depend on the processing

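The counts of members called in the response of each genotype and between the untreated genotypes stayed within 1.5 times of those reported under every alternative run. Between the stimulated genotypes, 4 members became 1 with only the arrays compared, 2 without moderation, 2 without probe sets of shared targets (8 members had a value) and 0 at the thresholds of the methods, where Dusp2 lay just under 1.5-fold. Leaving out single arrays gave 1 to 4. For the difference of the responses, 0 became 2 at those thresholds, 3 with an intensity trend, 3 without dim genes (8 members had a value), 1 with the mean of all probe sets and 1 with the replicate number as a block. Leaving out single arrays gave 0 to 1, the 1 being Dusp2 without Nos2-/- untreated replicate 3 or Nos2-/- stimulated replicate 2, and Dusp7 without Nos2-/- stimulated replicate 3. The replicate block called Dusp2 (adjusted p = 0.0338 from limma) and lost Dusp7 between the stimulated genotypes (adjusted p = 0.0522). Of 18 same-number pairs of arrays 2 correlated over 0.1 (−0.26 to 0.21). By mean correlation, 7 of the 12 arrays matched best with arrays of their own number. With 3 arrays per group, these values cannot tell whether the numbers pair the samples. Why a count changed under an alternative was not tested. No scaling moved the median of all genes by over 0.06.

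Signs turned only for differences that were called under neither setting. Centring the arrays gave 0.0006 for Dusp10 in WT and 0.030 for Dusp7 and 0.041 for Dusp8 in Nos2-/-, and quantile normalization gave 0.103 and 0.171 for the last pair. The mean of all probe sets gave 0.042 for Dusp10 in WT, 0.113 for Dusp7 in Nos2-/-, −0.125 for Dusp8 between stimulated and 0.019 for Dusp10 between untreated genotypes. Leaving out single arrays gave −0.035 to 0.10 for Dusp8 and −0.149 to 0.050 for Dusp10 in WT, and −0.082 to 0.023 for Dusp7 and −0.070 to 0.077 for Dusp8 in Nos2-/-. Dusp8 ran from −0.065 to 0.060 between stimulated genotypes and from −0.116 to 0.053 for the difference of the responses. Between untreated genotypes the range was −0.093 to 0.113 for Dusp1, −0.143 to 0.040 for Dusp2, −0.042 to 0.105 for Dusp8, −0.141 to 0.058 for Dusp10, −0.047 to 0.060 for Dusp16 and −0.208 to 0.019 for Dusp14.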
